A study of Mus musculus with 6 samples.

Results

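The genes described here belong to glycolysis and to the cell's response to low oxygen. Of 39 listed genes, 35 had a value among the 19938 genes measured. They were chosen by a measured pattern, since their mean log2 value followed the replicate number of the arrays in the control and in the VPA group alike, over all 6 arrays. Differences between replicate numbers are therefore given as a description and carry no test. Gpi1 and Eno1 had no probe set annotated with that symbol, Gapdh was named only by 25 probe sets shared with other genes, and Ero1l is annotated under its current symbol Ero1a. These 4 genes were not counted, and Ero1a is described apart from the 35. All values are log2 expression values of Affymetrix mouse Gene 1.0 ST arrays, so a difference of 1 is a doubling.

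The sample titles and the series design give murine prostate cancer cells, 3 control samples and 3 samples treated with valproic acid (VPA), each a biological replicate on an array of its own. VPA, an epilepsy drug, inhibits class I histone deacetylases, enzymes that take acetyl groups off histones. For the line, the dose, the duration and the treatment of the controls, nothing is stated in the labels. Other label fields of the same samples name embryonic stem cells, differentiated and of strain 129SV for the controls, undifferentiated and of strain Stra8-EGFP/Rosa26 for the VPA samples, so every VPA minus control difference rests on the titles. Nothing in the labels says whether samples with the same number shared a culture, a day or a batch, and p-values measure only the spread between these samples.

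The 6 arrays had medians between 7.15 and 7.18, and 3 arrays per group limit the precision. Of 15 measured markers of prostate epithelium, the secretory protein gene Pbsn lay between 3.41 and 3.76, the luminal keratin gene Krt8 between 7.25 and 7.99 and the homeobox gene Hoxb13 between 7.86 and 8.04. Of 14 measured markers of embryonic stem cells, Pou5f1 lay between 4.99 and 5.86, Nanog between 6.08 and 6.56 and Sox2 between 10.98 and 11.71. These values carry no detection call, and the levels of the other markers of both lists are not given, so no cell type is read from them. In bulk RNA, fewer cells of a type and less RNA per cell cannot be told apart.

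Glycolysis splits glucose into pyruvate, and in low oxygen or in many tumour cells the pyruvate is reduced to lactate and exported. Hypoxia-inducible factors (HIFs) are pairs of an alpha subunit, such as that of Hif1a or Epas1, and a constant beta subunit. Prolyl hydroxylases encoded by the Egln genes use oxygen to mark the alpha subunits for destruction, so that in low oxygen the protein accumulates without a need for more of its mRNA. HIFs bind DNA at a short core, ACGTG or GCGTG, and raise the transcription of glycolytic enzymes, glucose and lactate transporters, Vegfa, Bnip3 and other targets.

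The bases upstream of the start are shown for the 4 genes with the widest differences between replicate numbers by the probe sets used. These are Pdk1, Bnip3, Slc16a3 and Higd1a. Bases are also shown for Hif1a, whose replicate numbers lay close together, and for Tpi1, whose window lacks the core. They are the 250 bases before an annotated start in RefSeq, build GRCm38.p6, read 5′ to 3′ on the gene's strand. Each ACGTG or GCGTG of either strand is in capitals. Pdk1 has 2 windows in RefSeq, and only the first listed is shown. Their positions are chr2:71872974-71873223 on the plus strand for Pdk1, chr7:138909507-138909756 on the minus strand for Bnip3 and chr11:120948817-120949066 on the plus strand for Slc16a3. Those of the others are chr9:121857797-121858046 on the minus strand for Higd1a, chr12:73907617-73907866 on the plus strand for Hif1a and chr6:124814159-124814408 on the minus strand for Tpi1.
Pdk1: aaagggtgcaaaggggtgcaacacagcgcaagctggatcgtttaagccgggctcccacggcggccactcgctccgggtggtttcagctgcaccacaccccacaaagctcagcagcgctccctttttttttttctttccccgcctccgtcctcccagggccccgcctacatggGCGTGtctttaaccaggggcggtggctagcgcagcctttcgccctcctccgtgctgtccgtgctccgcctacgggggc
Bnip3: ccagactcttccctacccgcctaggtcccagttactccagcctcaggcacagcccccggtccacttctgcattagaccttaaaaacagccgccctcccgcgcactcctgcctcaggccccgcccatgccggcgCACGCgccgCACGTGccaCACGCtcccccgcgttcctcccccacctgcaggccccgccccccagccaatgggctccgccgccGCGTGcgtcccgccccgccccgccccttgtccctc
Slc16a3: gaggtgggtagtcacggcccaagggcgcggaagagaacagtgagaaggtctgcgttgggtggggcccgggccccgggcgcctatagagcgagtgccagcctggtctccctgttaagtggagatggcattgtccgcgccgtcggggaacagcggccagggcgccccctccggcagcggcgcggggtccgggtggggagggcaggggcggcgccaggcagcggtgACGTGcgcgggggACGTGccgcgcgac
Higd1a: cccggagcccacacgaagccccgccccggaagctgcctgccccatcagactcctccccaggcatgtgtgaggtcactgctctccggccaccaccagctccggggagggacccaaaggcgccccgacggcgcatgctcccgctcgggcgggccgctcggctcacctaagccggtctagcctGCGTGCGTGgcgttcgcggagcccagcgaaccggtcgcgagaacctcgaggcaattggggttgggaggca
Hif1a: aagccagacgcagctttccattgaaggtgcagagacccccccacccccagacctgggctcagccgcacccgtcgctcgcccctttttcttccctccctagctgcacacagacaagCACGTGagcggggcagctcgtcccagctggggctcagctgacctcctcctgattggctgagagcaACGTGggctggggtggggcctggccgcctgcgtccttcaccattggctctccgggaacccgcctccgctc
Tpi1: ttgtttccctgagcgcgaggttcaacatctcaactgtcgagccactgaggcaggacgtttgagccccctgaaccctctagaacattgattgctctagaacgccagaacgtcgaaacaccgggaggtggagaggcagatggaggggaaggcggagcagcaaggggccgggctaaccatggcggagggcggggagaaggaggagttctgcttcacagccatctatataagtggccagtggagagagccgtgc

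The printed stretch of Bnip3 held 5 matches, of which 2 overlap in a palindrome that reads as the core on both strands. Hif1a held 3 matches with a palindrome of the same kind, Slc16a3 and Higd1a held 2 each, Pdk1 held 1 and Tpi1 held 0. Over windows of 300 bases, which reach 50 bases past the start, RefSeq windows were found for 31 of the 35 genes. Slc2a3, Bnip3l, Ndrg1 and Epas1 were not among them. At least 1 match lay in a window of 29 of the 31 genes (93.5%), the exceptions being Eno2 and Tpi1, and in 46.7% of all 27025 genes with a window. Counted by window, it was 77.8% of 45 windows of these genes and 43.8% of all 32851. The windows of these genes were also richer in G and C, at 61.8% against 53.8% over all windows, and the part of this in the share of matches was not tested. A match is a string of letters and no evidence of binding.

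The same arrays were high and low in both treatments. Averaged over the 35 genes, control replicate 1 lay 0.33 below the mean of the 6 arrays and VPA replicate 1 lay at -0.22, whereas control replicate 2 lay at 0.28 and VPA replicate 2 at 0.24. Control replicate 3, at 0.01, and VPA replicate 3, at 0.03, were intermediate. Over all genes tested the 6 array means ranged only from 7.80 to 7.85. Replicate 1 was the lowest array for 29 of 35 genes in the controls and for 26 in the VPA group, and replicate 2 was the highest for 29 and 26. Both held in both groups for 18 of the 35 genes, against 2.38% of all genes tested. Replicate 2 lay above replicate 1 in both groups for 29 genes, against 21.5% of all genes, and below it for 1 gene, Epas1, against 37.0% of all genes. The genes were chosen on this pattern, so nothing is read from these counts.

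**Figure D1:**
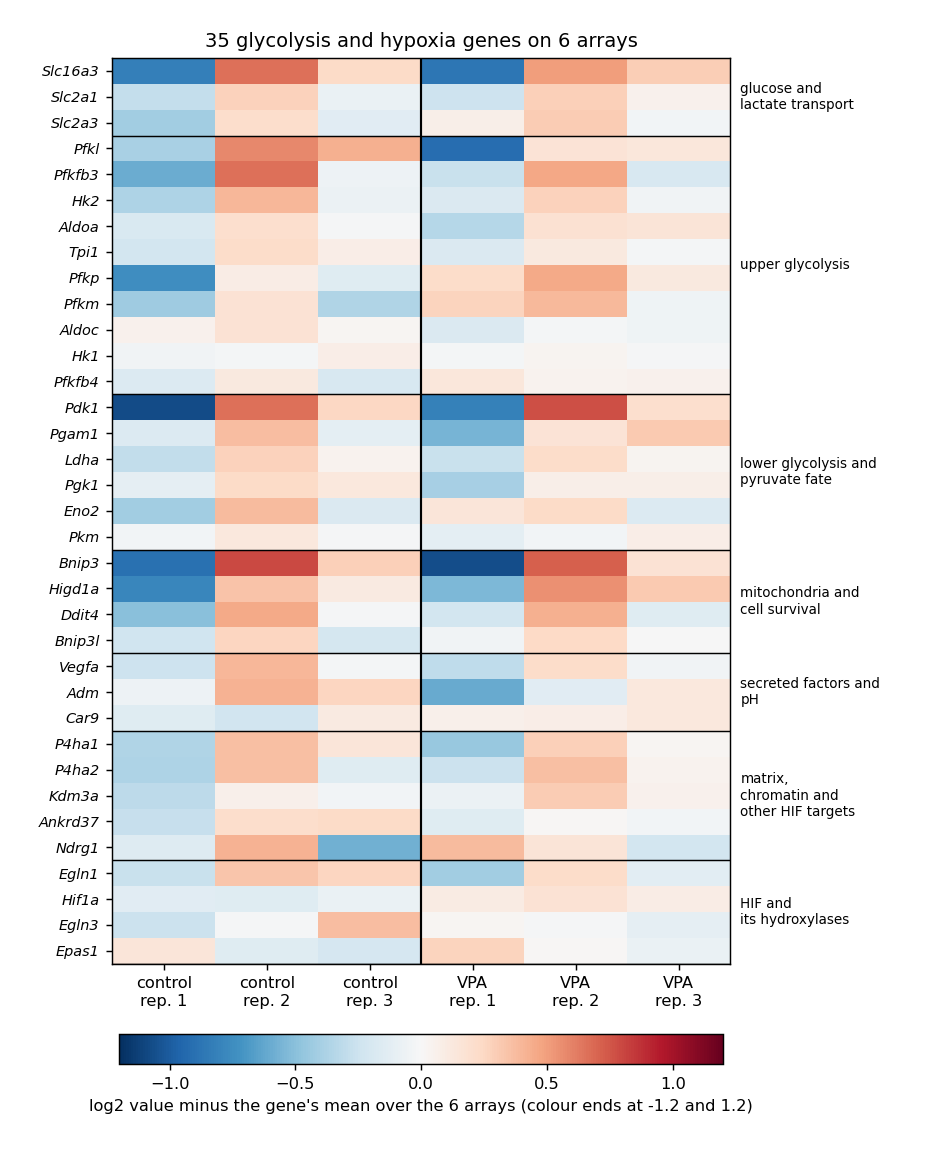
Log2 value minus the gene's own mean over the 6 arrays (colour, blue low and red high) for the 35 genes (rows, grouped by role) on each array (columns, controls left of the line). Both replicate 1 columns are mostly blue and both replicate 2 columns mostly red, with averages of -0.33 and -0.22 against 0.28 and 0.24. Replicate 1 was lowest and replicate 2 highest in both groups for 18 of the 35 genes. Rows that differ from this include Hk1, Hif1a, Epas1, Pfkfb4, Car9, Egln3 and Ndrg1.

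The widest differences were in a pyruvate dehydrogenase kinase, a mitophagy receptor and a lactate exporter. Bnip3, which encodes a protein of the outer mitochondrial membrane that recruits autophagosomes, measured 9.72, 11.41 and 10.90 in control replicates 1, 2 and 3 and 9.55, 11.34 and 10.79 in VPA replicates 1, 2 and 3. Pdk1, whose kinase shuts pyruvate out of the citric acid cycle, measured 7.82, 9.56 and 9.14 in the controls and 8.08, 9.67 and 9.10 with VPA. Slc16a3, which encodes the lactate transporter MCT4, measured 10.18, 11.66 and 11.23 in the controls and 10.13, 11.50 and 11.29 with VPA. In all 3 genes the arrays of replicate 1 stood apart below the other 4, and the control and VPA values overlapped. Replicate 2 exceeded replicate 1 by 3.23-fold in the controls and 3.46-fold with VPA for Bnip3, by 3.32-fold and 3.02-fold for Pdk1 and by 2.79-fold and 2.59-fold for Slc16a3. Ranked by the smaller of the differences in the 2 groups, Bnip3, Pdk1 and Slc16a3 were at positions 2, 3 and 4 of 19938 genes.

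**Figure D2:**
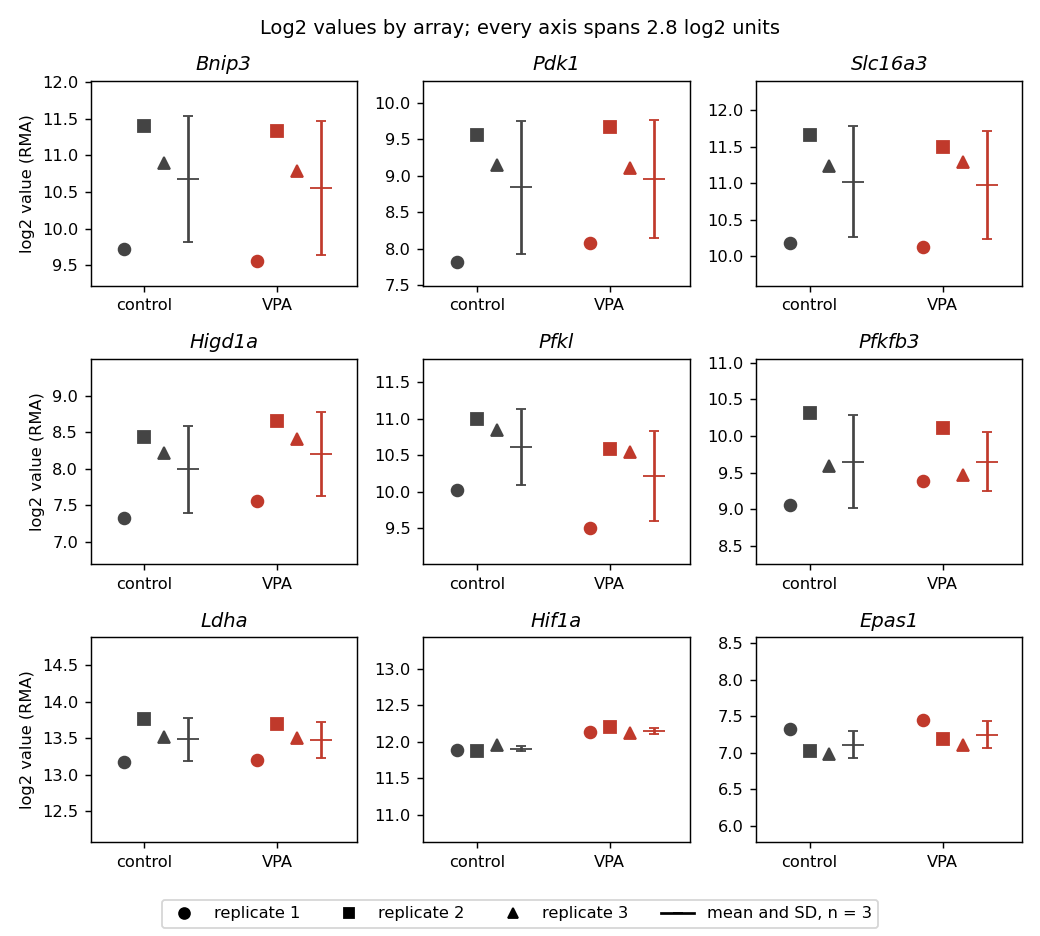
Log2 values of 9 genes on each array (circle, replicate 1; square, replicate 2; triangle, replicate 3), with the mean and SD of 3 arrays beside them, for control (grey) and VPA (red); every axis spans the same width. The circles of Bnip3, Pdk1 and Slc16a3 lie below the squares by 1.38 to 1.79 in both groups, whereas the 3 symbols of Hif1a span 0.07 in each group.

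Both glucose transporter genes lay higher in replicate 2 than in replicate 1. Slc2a1, encoding GLUT1, the main glucose carrier of proliferating cells, measured 11.84, 12.40 and 12.04 in control replicates 1, 2 and 3 and 11.87, 12.41 and 12.17 with VPA. Slc2a3, encoding the high-affinity carrier GLUT3, measured 10.50, 11.12 and 10.78 in the controls and 10.98, 11.22 and 10.88 with VPA. Slc2a1 kept the order of replicates in both groups, whereas for Slc2a3 VPA replicate 3 was the lowest VPA array. Replicate 2 exceeded replicate 1 by 1.47-fold and 1.45-fold for Slc2a1 and by 1.54-fold and 1.18-fold for Slc2a3, in controls and VPA.

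Of 10 genes of upper glycolysis, 9 lay higher in replicate 2 than in replicate 1 in both groups, the exception being Pfkfb4. Phosphofructokinase commits glucose to glycolysis, and its 3 subunit genes differed among themselves. Pfkl, the liver-type subunit, measured 10.02, 10.99 and 10.84 in the controls and 9.50, 10.58 and 10.55 with VPA. Pfkp, the platelet-type subunit, measured 9.89, 10.72 and 10.49 in the controls and 10.85, 11.09 and 10.75 with VPA. Pfkm, the muscle-type subunit, measured 10.49, 11.09 and 10.56 in the controls and 11.19, 11.31 and 10.87 with VPA. Replicate 1 was low by a similar step in both groups for Pfkl, with replicate 2 at 1.97-fold and 2.12-fold of replicate 1. For Pfkp and Pfkm replicate 2 was at 1.78-fold and 1.51-fold of replicate 1 in the controls but at 1.19-fold and 1.09-fold with VPA. Among the controls, replicate 1 stood below the other arrays for Pfkp. For Pfkm it lay close to replicate 3, at 10.49 and 10.56. Whether these steps differ between the treatments was not tested, since each rests on 1 array of each replicate number.

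Pfkfb3 encodes an enzyme that makes fructose 2,6-bisphosphate, the strongest activator of phosphofructokinase. It measured 9.05, 10.31 and 9.59 in the controls and 9.38, 10.11 and 9.46 with VPA, and both replicate 2 arrays stood above the other 4. Its relative Pfkfb4 measured 8.30, 8.58 and 8.27 in the controls and 8.60, 8.50 and 8.51 with VPA, with no such order in the VPA group. Hk2, the hexokinase gene that tumour cells raise, measured 9.41, 10.18 and 9.71 in the controls and 9.61, 10.06 and 9.74 with VPA. For Hk2 replicate 2 was the highest and replicate 1 the lowest array in each group, at 1.70-fold and 1.36-fold.

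Hk1, the housekeeping hexokinase gene, measured 12.89, 12.91 and 13.02 in the controls and 12.91, 12.97 and 12.92 with VPA. This value is uncertain, because 16 further probe sets list Hk1 together with the ribosomal protein gene Rpl17. The other Hk1 probe set with a single symbol measured 11.82, 12.37 and 12.06 in the controls and 12.15, 12.37 and 12.10 with VPA. By that probe set, control replicate 1 was low and both replicate 2 arrays were the highest.

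Further along the pathway, Aldoa, the main aldolase gene, measured 12.75, 13.13 and 12.92 in the controls and 12.59, 13.11 and 13.08 with VPA. Tpi1, encoding triosephosphate isomerase, measured 12.94, 13.38 and 13.24 in the controls and 12.98, 13.27 and 13.13 with VPA. Both genes had replicate 1 lowest and replicate 2 highest in each group, and the groups overlapped. Aldoc, the brain-type aldolase gene, stayed between 6.52 and 6.86, with replicate 2 above replicate 1 by 0.12 in the controls and 0.15 with VPA.

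All 6 measured genes of lower glycolysis and pyruvate fate lay higher in replicate 2 than in replicate 1 in both groups. Besides Pdk1, the most regular was Ldha, the lactate dehydrogenase subunit gene that favours lactate production, at 13.18, 13.76 and 13.52 in the controls and 13.21, 13.70 and 13.51 with VPA. Pgam1, encoding phosphoglycerate mutase, measured 11.74, 12.27 and 11.78 in the controls and 11.34, 12.06 and 12.21 with VPA. Ldha followed the same order in both groups, whereas for Pgam1 VPA replicate 3 was the highest VPA array. Pgk1, encoding phosphoglycerate kinase, measured 13.12, 13.46 and 13.35 in the controls and 12.83, 13.30 and 13.30 with VPA, so that VPA replicate 1 was the lowest of the 6 arrays.

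Eno2, the neuronal enolase gene, measured 9.57, 10.36 and 9.81 in the controls and 10.13, 10.21 and 9.82 with VPA. Pkm, the pyruvate kinase gene expressed in most dividing cells, stayed between 12.88 and 13.12. Neither kept the order of replicates in the VPA group, where replicate 3 was the lowest array for Eno2 and the highest for Pkm.

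The 4 genes of mitochondria and cell survival all had replicate 1 lowest and replicate 2 highest in both groups. Higd1a, a small protein of the inner mitochondrial membrane, measured 7.32, 8.44 and 8.21 in the controls and 7.56, 8.65 and 8.41 with VPA. Ddit4, encoding REDD1, an inhibitor of the growth kinase complex mTORC1, measured 7.70, 8.66 and 8.19 in the controls and 7.98, 8.63 and 8.06 with VPA. Bnip3l, encoding the mitophagy receptor NIX, measured 10.85, 11.34 and 10.88 in the controls and 11.04, 11.33 and 11.08 with VPA. The step from replicate 1 to replicate 2 was 2.18-fold and 2.13-fold for Higd1a, 1.95-fold and 1.57-fold for Ddit4 and 1.41-fold and 1.22-fold for Bnip3l, and the treatments overlapped in all 3.

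Of the secreted factors and pH regulators, Vegfa, the growth factor of blood vessels, measured 9.85, 10.50 and 10.08 in the controls and 9.80, 10.32 and 10.06 with VPA. Adm, the vasodilator peptide adrenomedullin, measured 10.39, 10.87 and 10.71 in the controls and 9.85, 10.32 and 10.58 with VPA. Replicate 1 was the lowest array for both genes in each group, but for Adm VPA replicate 3 was the highest VPA array. Car9, a carbonic anhydrase of the cell surface that is a common marker of hypoxia in tumours, stayed between 5.94 and 6.29, and control replicate 2 was its lowest array.

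P4ha1 and P4ha2 encode the catalytic subunits of collagen prolyl 4-hydroxylase. P4ha1 measured 11.63, 12.35 and 12.13 in the controls and 11.53, 12.27 and 12.01 with VPA. P4ha2 measured 9.63, 10.36 and 9.85 in the controls and 9.74, 10.36 and 10.04 with VPA. Kdm3a, a histone H3K9 demethylase gene, measured 10.87, 11.25 and 11.16 in the controls and 11.12, 11.49 and 11.24 with VPA. All 3 had replicate 1 lowest and replicate 2 highest in both groups, and the treatments overlapped.

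Ankrd37 measured 7.09, 7.58 and 7.59 in the controls and 7.22, 7.38 and 7.33 with VPA, so replicate 1 was lowest in both groups. Ndrg1, a stress-responsive gene, measured 8.76, 9.33 and 8.33 in the controls and 9.29, 9.06 and 8.69 with VPA. For Ndrg1 replicate 3 was the lowest array in both groups, and replicate 2 lay above replicate 1 by 0.58 in the controls but at -0.23 from it with VPA. Ero1a, the oxidase gene listed as Ero1l, measured 12.05, 13.13 and 12.47 in the controls and 12.52, 13.13 and 12.41 with VPA, and both replicate 2 arrays stood above the other 4.

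The transcription factor genes did not share the pattern. Hif1a measured 11.89, 11.88 and 11.95 in the controls and 12.13, 12.20 and 12.12 with VPA, and the replicates spanned 0.07 in each group. Epas1, encoding HIF-2 alpha, measured 7.32, 7.03 and 6.98 in the controls and 7.45, 7.19 and 7.10 with VPA. Epas1 was highest in replicate 1 in both groups, the reverse of most of the 35 genes. Egln1, the main HIF prolyl hydroxylase gene and itself a HIF target, measured 9.95, 10.55 and 10.47 in the controls and 9.80, 10.44 and 10.09 with VPA, with replicate 1 lowest and replicate 2 highest in each group. Egln3, a hydroxylase gene known as a strong HIF target, stayed between 5.68 and 6.31 with no shared order.

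**Figure D3:**
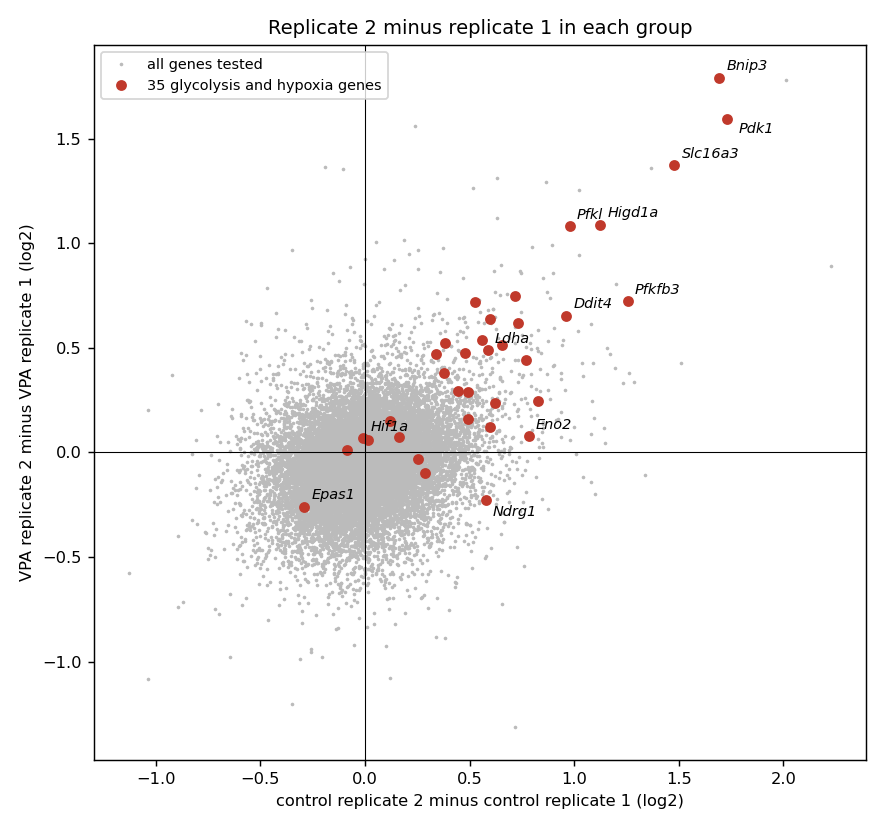
Replicate 2 minus replicate 1 in the controls (horizontal, log2) and in the VPA group (vertical, log2) for all 19938 genes tested (grey) and the 35 genes (red), which were chosen on this pattern. Bnip3 (1.69, 1.79), Pdk1 (1.73, 1.59) and Slc16a3 (1.48, 1.38) lie at the upper right, Hif1a (-0.01, 0.07) lies near 0 and Epas1 (-0.29, -0.26) lies at the lower left.

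Sizes varied widely among the 35 genes. The smaller of the 2 steps from replicate 1 to replicate 2 was at least 1 for 4 of them and 7 of all genes tested, at least 0.5 for 13 and 64, and at least 0.3 for 19 and 221. Between arrays that shared a number, the median absolute VPA minus control difference was 0.16 over the 35 genes and 3 numbers. In 20 of the 35 genes the largest of the 3 same-number differences was smaller than the smaller step from replicate 1 to replicate 2. Neither figure was computed over all genes, and the 35 were chosen on differences between replicate numbers, so nothing is read from them.

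For 7 of the 35 genes further probe sets with a single symbol gave another reading of the same RNA. The second probe set of Bnip3 measured 9.15, 10.51 and 9.97 in the controls and 8.89, 10.55 and 10.06 with VPA, and that of Higd1a measured 7.49, 8.09 and 8.20 in the controls and 7.68, 8.39 and 8.42 with VPA. Replicate 1 was the lowest array in both groups by either probe set of both genes, although by the second probe set of Higd1a replicate 3 was slightly above replicate 2. The step of Higd1a from replicate 1 to replicate 2 was also smaller by its second probe set, at 0.60 in the controls and 0.72 with VPA. By the probe set used it was 1.12 and 1.09. The further probe sets of Bnip3l, Pgam1, Pgk1 and Pkm also lay higher in replicate 2 than in replicate 1 in both groups, by 0.26 to 0.76. Some of these probe sets gave the same values to 2 decimals, so they are no independent measurements. Near-identical copies of Pgk1, Pgam1, Pkm, Ldha, Tpi1 and Aldoa elsewhere in the genome could share their probes. The probe sets used, those of Bnip3 and Higd1a included, were not checked for matches to copies of their genes.

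Between the treatments, none of the 35 genes passed the test: 0 were called higher and 0 lower with VPA by limma at an adjusted p under 0.05, against 2.34% of all genes tested. At an unadjusted p under 0.05 there were 3, all higher with VPA (Hif1a, Pfkp and Pfkm), against 18.1% of all genes in either direction and 9.82% in this one. The median VPA minus control difference was 0.001 over the 35 genes, 18 above and 17 below 0, and -0.035 over all genes. It moved to -0.141 without control replicate 1 and to 0.213 without control replicate 2, the extremes of leaving out each array. The control and VPA values did not overlap in 3 of the 35 genes, against 23.1% of all genes. These were Pfkp and Hif1a, higher with VPA, and Aldoc, lower with VPA. The spread within a group was wide for these genes, with a median SD of 0.283 against 0.122 over all genes, and the genes were chosen on differences between replicates.

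**Figure D4:**
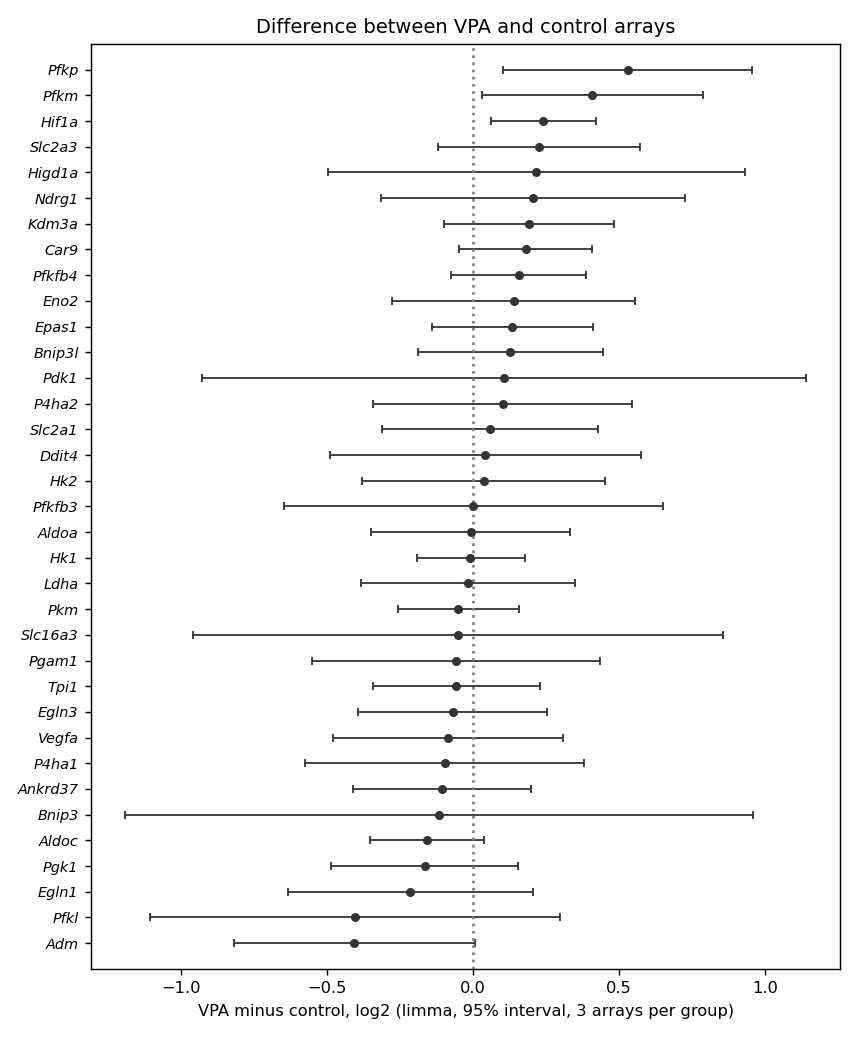
VPA minus control difference on the log2 scale for the 35 genes (points) with limma's 95% interval from 3 arrays per group (bars), ordered by size. The intervals of Pfkp, Pfkm and Hif1a lie above 0 before adjustment, and those of Pdk1, Bnip3 and Slc16a3 reach about 1 to either side of 0.

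The 95% intervals were widest for the genes with the largest steps between replicates. Bnip3 differed by -0.12 with a 95% interval from -1.19 to 0.96, Pdk1 by 0.11 from -0.93 to 1.14 and Slc16a3 by -0.05 from -0.96 to 0.86 (limma adjusted p 0.92, 0.924 and 0.958). Ldha differed by -0.02 from -0.38 to 0.35, Slc2a1 by 0.06 from -0.31 to 0.43 and Vegfa by -0.09 from -0.48 to 0.31 (limma adjusted p 0.964, 0.878 and 0.824). Missing the threshold does not show that these genes were equal in both treatments.

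Hif1a had the smallest p of the 35 genes. Its mean was 11.91 ± 0.036 (SD, n = 3) in the controls and 12.15 ± 0.041 (SD, n = 3) with VPA, and the 3 VPA values lay above the 3 control values. The difference of 0.24 (SE 0.0797, 95% interval 0.06 to 0.42) did not pass limma's test over all genes, at an adjusted p of 0.154. An exact two-sided permutation test of the 6 values gave p = 0.1, the smallest that 3 against 3 allow. Epas1 differed by 0.13 (SE 0.123) with a limma adjusted p of 0.592.

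The differences of the 3 phosphofructokinase genes did not share a sign, and none passed the test. Pfkp was at 10.37 ± 0.427 in the controls and 10.90 ± 0.177 with VPA (SD, n = 3 each), a difference of 0.53 (SE 0.19) at a limma adjusted p of 0.181. Pfkm was higher by 0.41 (SE 0.168) at a limma adjusted p of 0.239, and Pfkl was lower, at -0.40 (SE 0.313), with a limma adjusted p of 0.524. The exact two-sided permutation test gave p = 0.1 for Pfkp and p = 0.2 for Pfkm. For Pfkp, as for Hif1a, this value follows from groups that do not overlap. Hif1a, Pfkp and Pfkm, the only genes given this test, had the smallest limma p of the 35, so it adds no support. Adm had the lowest difference of the 35, at -0.41 (SE 0.184, limma adjusted p = 0.283). The 30 genes besides Hif1a, Adm and the 3 phosphofructokinases lay between -0.215 and 0.225.

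Of 46 measured HIF targets outside the 35 genes, 1 rose and 1 fell with VPA and 44 did not pass, against 1.71% of all genes tested called higher and 0.632% called lower. Car12, a carbonic anhydrase of the cell surface, measured 7.07, 7.57 and 7.00 in the controls and 8.43, 8.08 and 7.87 with VPA. With no overlap between groups, it rose 1.88-fold (log2 0.91, SE 0.176, limma adjusted p = 0.0328). Leaving out replicate 1 or 3 of the controls ended the call (limma adjusted p 0.137 and 0.109), as did leaving out replicate 1 or 2 of the VPA group (0.116 and 0.107). Those fits called only 20 to 72 of all genes tested, against 467 with all 6 arrays, so the loss is not particular to Car12. Stc2, the secreted glycoprotein stanniocalcin 2, measured 9.08, 9.21 and 8.95 in the controls and 8.59, 8.71 and 8.50 with VPA. It fell by 0.48 (SE 0.0992, limma adjusted p = 0.042) with no overlap, and leaving out any 1 of the 6 arrays ended the call, at limma adjusted p from 0.0685 to 0.148.

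Part of these other HIF targets followed the replicate numbers. Replicate 1 was lowest and replicate 2 highest in both groups for 8 of 46 (17.4%), against 2.38% of all genes tested. These were Ak4, Bhlhe41, Kdm4b, Fam162a, Mif, Ccng2, Rcor2 and Narf, which were named after their values were seen. The list itself was chosen with earlier results of these data known. Fam162a, a mitochondrial protein gene, measured 10.83, 11.69 and 11.26 in the controls and 10.30, 11.59 and 11.41 with VPA. Nrn1, encoding the secreted protein neuritin, measured 8.74, 9.58 and 8.32 in the controls and 9.41, 10.24 and 8.61 with VPA, and Tfrc, the transferrin receptor gene, 11.97, 12.56 and 12.63 in the controls and 11.92, 12.60 and 12.36 with VPA. All 3 genes lay higher in replicate 2 than in replicate 1 in both groups, by 0.59 to 1.29, although Nrn1 was lowest in replicate 3 and Tfrc highest in control replicate 3. Replicate 2 exceeded replicate 1 in both groups for 25 of the 46 (54.3%), against 21.5% of all genes tested. It was below replicate 1 in both groups for 12 (26.1%), against 37.0% of all genes.

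**Figure D5:**
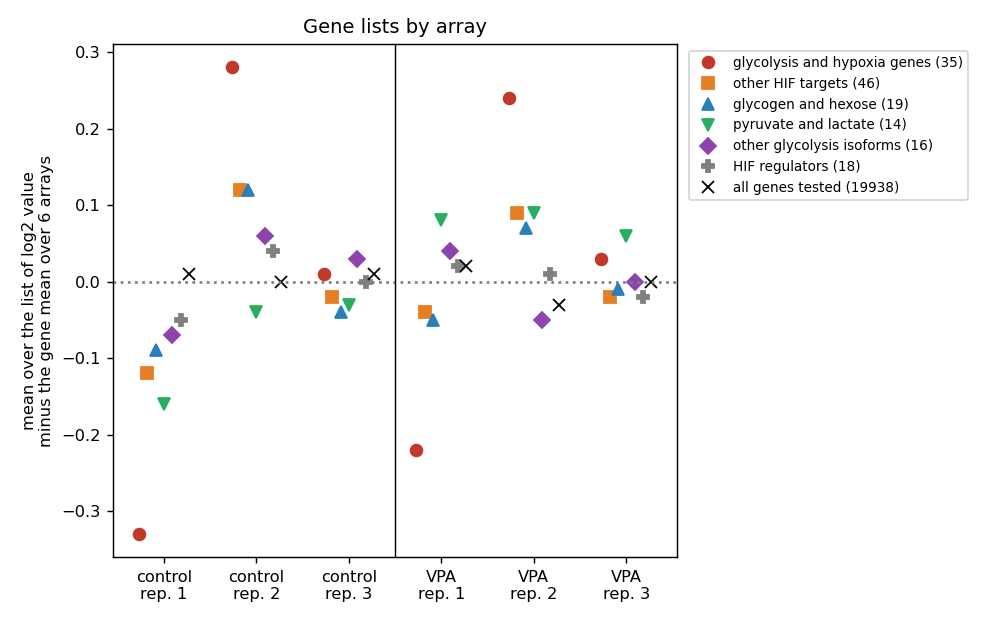
Mean over each gene list (number of measured genes in brackets) of the log2 value minus the gene's mean over the 6 arrays, for each array. The 35 genes run from -0.33 to 0.28, the other HIF targets from -0.12 to 0.12 with both replicate 2 arrays highest, and all genes tested from -0.03 to 0.02.

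Among 19 measured genes of glycogen and hexose metabolism, 18 did not pass, 1 was higher with VPA and 0 were lower. Of all genes tested, 1.71% were called higher and 0.632% lower. Pygb, the brain-type glycogen phosphorylase, measured 10.28, 10.30 and 10.22 in the controls and 10.77, 10.55 and 10.73 with VPA. It rose 1.33-fold (log2 0.42, SE 0.0899, limma adjusted p = 0.0484) with no overlap, but leaving out any 1 of the 6 arrays ended the call (limma adjusted p from 0.0678 to 0.18), as did a second quantile normalization (0.0588). Gys1, the muscle-type glycogen synthase gene, and Pgm1, a phosphoglucomutase gene, had replicate 1 lowest and replicate 2 highest in both groups. Gys1 measured 10.41, 11.29 and 10.80 in the controls and 9.92, 10.66 and 10.43 with VPA, and Pgm1 10.22, 11.10 and 10.69 in the controls and 10.10, 10.64 and 10.54 with VPA. Gys1 differed between treatments by -0.49 (SE 0.231, limma adjusted p = 0.296).

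Among 14 measured genes of pyruvate and lactate handling, 1 rose, none fell and 13 did not pass. Pdp1, the phosphatase that reverses the action of pyruvate dehydrogenase kinases, measured 9.16, 9.34 and 9.46 in the controls and 10.00, 10.10 and 9.69 with VPA. With no overlap between groups, it rose 1.53-fold (log2 0.61, SE 0.124, limma adjusted p = 0.0394). The call held when VPA replicate 3 was left out and ended for each of the other 5 arrays, at limma adjusted p of 0.153, 0.0623 and 0.0772 for control replicates 1, 2 and 3 and 0.147 for VPA replicates 1 and 2. Pdk3, another kinase of the complex, had the replicate order of Pdk1, at 9.93, 10.35 and 10.21 in the controls and 10.22, 10.66 and 10.37 with VPA.

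Of 8 genes of gluconeogenesis, 1 rose, none fell and 7 did not pass, against 1.71% of all genes tested called higher and 0.632% lower. Pcx, the mitochondrial enzyme that carboxylates pyruvate to oxaloacetate, measured 8.40, 8.49 and 8.32 in the controls and 9.33, 9.03 and 9.13 with VPA. It rose 1.70-fold (log2 0.76, SE 0.101, limma adjusted p = 0.0113) with no overlap, but leaving out control replicate 1 or 3 ended the call, at limma adjusted p of 0.0559 and 0.051. Pcx had no shared replicate order, with replicate 2 at 0.09 above replicate 1 in the controls and at -0.30 with VPA.

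No gene passed among 16 other glycolysis isoforms, 10 pentose phosphate genes and 18 HIF regulators, against 2.34% of all genes tested. An unadjusted p under 0.05 in limma was found for 5, 2 and 3 of these genes, against 18.1% of all genes. The nearest were Bpgm, of the red cell bypass of glycolysis, at 0.39 (limma adjusted p = 0.0636), Egln2, the remaining HIF prolyl hydroxylase gene, at -0.41 (limma adjusted p = 0.0667), and Tkt, encoding transketolase, at -0.32 (limma adjusted p = 0.0842). Bpgm passed in 4 of the alternative settings and Egln2 in 5, and the replicate order of the 35 genes was shared by 0 of 16, 1 of 10 and 1 of 18 genes. Of 20 targets of the stress factor ATF4, Stc2 fell, none rose and 19 did not pass, and 0 shared the order. Over all genes tested, 0.632% were called lower and 1.71% higher. The median VPA minus control differences of the 8 pathway lists lay between -0.083 for gluconeogenesis and 0.104 for pyruvate and lactate handling, against -0.035 over all genes. Nupr1, an ATF4 target, was highest in replicate 2 in both groups, at 10.89, 11.58 and 10.82 in the controls and 11.04, 11.58 and 10.74 with VPA.

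The order of replicates, found in 2.38% of all genes tested, was counted among markers of other cells. It was found in 0 of 15 markers of prostate epithelium, 0 of 14 of embryonic stem cells, 1 of 12 of fibroblasts, 0 of 10 of leukocytes, 0 of 9 of endothelium and 0 of 4 of erythroid cells. The fibroblast marker with this order was Vim, encoding vimentin. With VPA, 1 fibroblast marker (Thy1, by 0.99, limma adjusted p = 0.00973) and 1 leukocyte marker (Coro1a, by 0.81, limma adjusted p = 0.0187) were called higher. No other of these markers passed, against 1.71% of all genes tested called higher and 0.632% lower. Thy1 and Coro1a were named after their values were seen. The call of Coro1a ended when replicate 1 or 3 of the controls or replicate 1 or 2 of the VPA group was left out (limma adjusted p from 0.0602 to 0.0888). As deviations from the 6-array mean, the endothelial markers lay at 0.10 and 0.07 in replicate 1 and at -0.08 and -0.10 in replicate 2 of the controls and the VPA group. Replicate 2 was below replicate 1 in both groups for 7 of 9 endothelial and 9 of 15 prostate epithelium markers, against 37.0% of all genes tested. The prostate epithelium markers lay at 0.03 and 0.02 in replicate 1 and at -0.09 and -0.06 in replicate 2. The part of either in the pattern of the 35 genes was not tested.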

How the data were processed

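Total RNA was labelled with biotin for Affymetrix mouse Gene 1.0 ST arrays, per the labels' protocols. Per the submitters' processing notes, the deposited log2 values came from RMA in Expression Console, for which no version or build is given in the sources used here. RMA makes the arrays' distributions alike, which hides any change common to most genes, and gives no detection call.

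Of 35556 probe sets, 21789 carried exactly 1 gene symbol in the platform annotation. For each gene the probe set with the highest mean over the 6 arrays was kept, which gave 19938 genes. Groups and replicate numbers came from the sample titles. The treatments were compared with limma 3.58.1 (lmFit, eBayes; R 4.3.3) with no other term than the group, by two-sided tests with Benjamini-Hochberg adjustment over all genes tested and a call at an adjusted p under 0.05. The fit was also run on simulated data with noise independent between arrays, which cannot test it for deviations shared by arrays of one number. The 35 members and the 14 other gene lists were chosen with earlier results of these data known. Every member is given. Of other lists, called genes, or otherwise the 2 with the smallest p, could be named, and the 3 with the largest difference between replicates 2 and 1 of one sign in both groups. Outside this rule, Pbsn, Hoxb13, Pou5f1, Nanog, Sox2 and Vim were named among the markers, and so were other HIF targets that had the replicate order. Promoter windows and coordinates are from RefSeq, GRCm38.p6. The alternatives were other normalizations, a filter on low values, other variance priors and weights, a replicate block, other probe set rules, a stricter threshold and leaving out each array.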

Additional observations from a re-analysis of the deposited data

How the results depend on the processing

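No member was called higher or lower with VPA in any setting but the replicate block, including leaving out each array in turn, where both counts ranged from 0 to 0. Over all genes, leaving out control replicates 1, 2 and 3 gave 20, 515 and 71 calls. Leaving out VPA replicates 1, 2 and 3 gave 66, 72 and 815, against 467 in the main fit. In the fits with the fewest calls, 0 members called or a lost call says little about a single gene. With the replicate number as a block in limma, 1 member was called higher (Pfkp, adjusted p = 0.0473) and 1 lower (Pfkl, adjusted p = 0.03), with Gys1 lower (adjusted p = 0.0158) and Nrn1 higher (adjusted p = 0.0176) among the other genes given here, and 1199 of all genes (6.01%) were called against 467 without the block. The numbers were not taken as pairs. Over all genes the deviations from the group means correlated at 0.08, 0.45 and 0.28 between control and VPA arrays numbered 1, 2 and 3, and control replicate 1 correlated best with VPA replicate 3, at 0.20. The median difference over the members ranged from -0.141, without control replicate 1, to 0.213, without control replicate 2, and 20 of 35 members changed sign in at least 1 setting while not called. The mean step from replicate 1 to replicate 2 ranged from 0.56 to 0.62 in the controls and from 0.46 to 0.49 with VPA over the settings tried. A fit over all 35556 probe sets called only 2, so Pcx, Pdp1, Car12, Stc2, Pygb, Thy1 and Coro1a lost their calls there (limma adjusted p from 0.119 to 0.189), and of these only Thy1 passed a threshold of 0.01.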
